A study of Mus musculus with 15 samples.

Results

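Transcript levels of the glucocorticoid receptor and of 7 genes known as its targets or as part of glucocorticoid handling were followed in quadriceps muscle of wild-type mice and of mice homozygous for the V338Y exchange in the mitochondrial ribosomal protein Mrps5. The set was defined as a list of names and holds Nr3c1, Fkbp5, Tsc22d3, Zbtb16, Mt1, Mt2, Sgk1 and Hsd11b1, 8 of the 39179 genes counted. RNA-seq libraries came from 15 mice on the C57BL/6 background. The young groups, aged 3 mo, held 4 mice of each genotype, and the aged groups, at 19 mo, held 3 wild-type and 4 mutant animals. The labels name no hormone or other agent for any group. The exchange is present in the whole animal, and its described effect is a lower accuracy of mitochondrial protein synthesis.

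Glucocorticoids are adrenal steroid hormones that enter the cell and bind the glucocorticoid receptor, encoded by Nr3c1. The receptor is held in the cytoplasm by heat shock proteins and immunophilins, moves to the nucleus once it has bound hormone, and there raises or lowers the transcription of its target genes. In skeletal muscle the hormone is known for promoting protein breakdown, opposing insulin and adjusting fuel use, and its release follows the time of day.

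Total counts ran from 8250653 to 18968132 per mouse. Levels are given as CPM, the count of a gene scaled to library size, after the TMM adjustment for the composition of each library. Eif3j2 followed the genotype labels. It lay between 0.0911 and 0.597 CPM in the wild-type mice and between 18.1 and 33.4 CPM in the V338Y mice. The level of Mrps5 itself overlapped between the genotypes at both ages. The exchange was not read from the sequences, so the labels were not checked independently. The young mice are described as female in the methods. All 8 young mice nevertheless had Y-linked transcripts (Ddx3y 163 to 202 CPM, Xist at most 0.574 CPM), and all 7 aged mice had Xist at 506 to 631 CPM with Ddx3y at most 0.0826 CPM. Age and sex-chromosome expression therefore cannot be told apart in the comparisons with age, and no age comparison was possible within mice of the same sex-chromosome pattern. The 9 muscle markers summed to between 164493 and 314098 CPM per mouse. Among them Myh2 set both aged mice numbered 5 apart. It was at 4242 CPM in the wild-type and 4876 CPM in the V338Y mouse 5, against 243 to 877 CPM in all other mice. The aged V338Y mouse 5 stood apart by its 6 neutrophil markers, which summed to 559 CPM against at most 24.9 CPM in any other mouse, and results that rest on it are given with and without it.

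**Figure D1:**
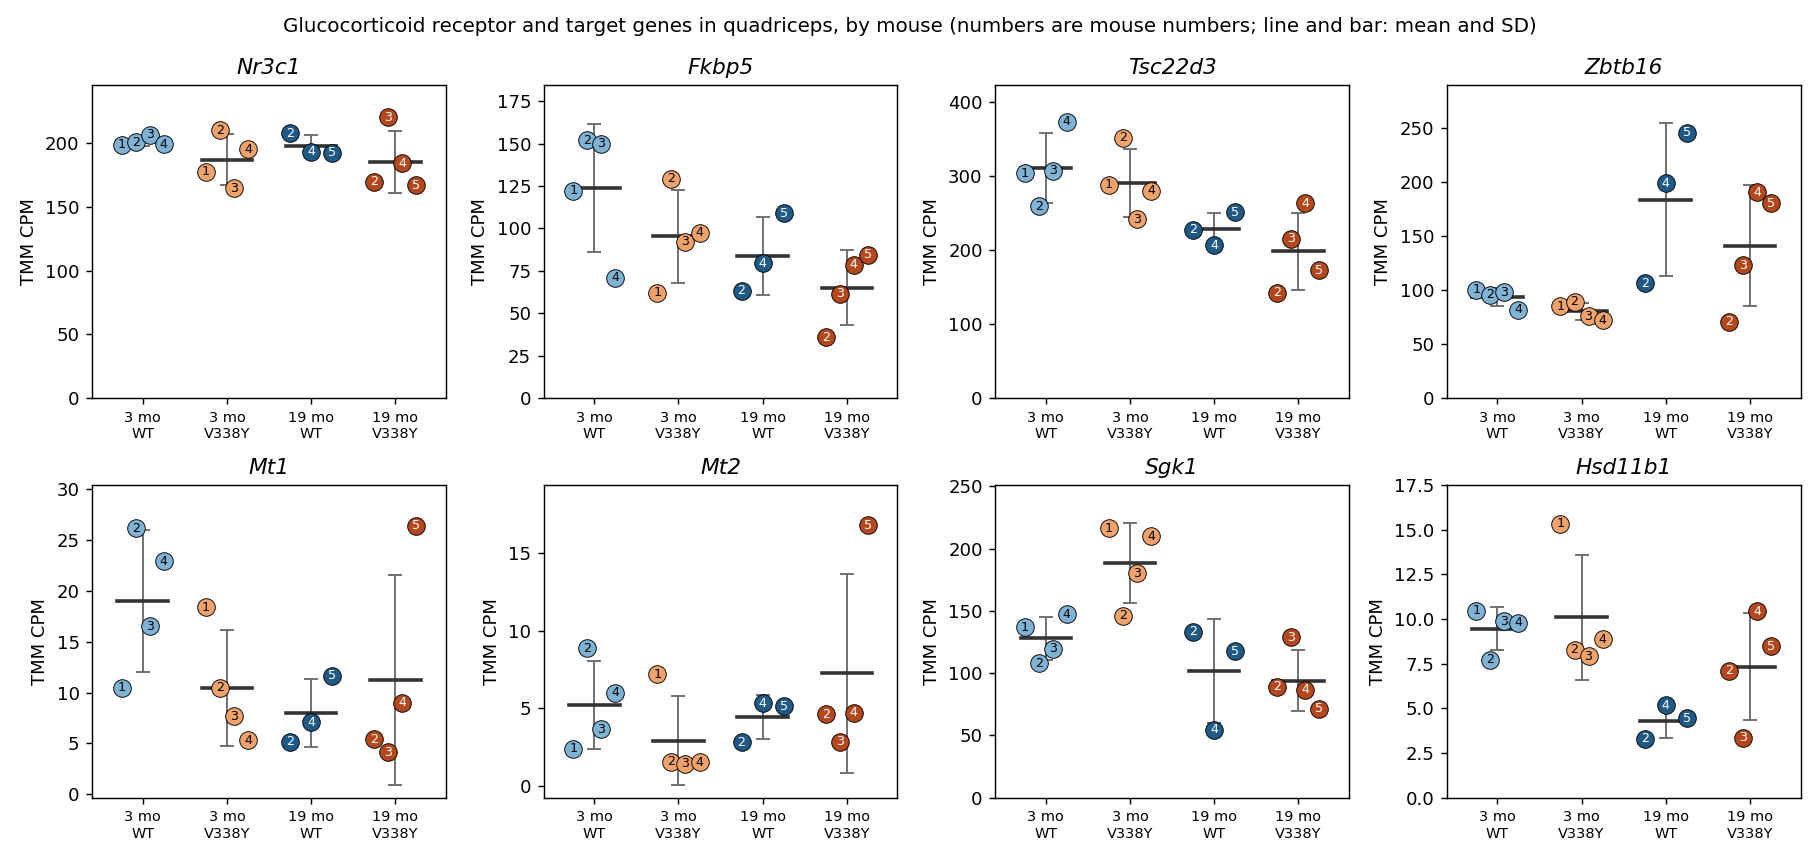
Level of each of the 8 genes (TMM CPM, linear axis) in each of the 15 mice, by age and genotype. Numbers in the points are mouse numbers, the line is the group mean and the bar its SD. Nr3c1 stayed between 165 and 221 CPM in all mice, whereas Zbtb16 reached 246 CPM and spread widely in the aged groups.

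Per kilobase of exon, a rough scale for setting genes side by side, Tsc22d3 had the highest mean level over the 15 mice at 59.7 CPM per kb. The length is that of all annotated exons merged. For Mt1 it is 1246 bases, the whole span of the gene, so the value and rank of Mt1 may be too low. Sgk1 at 26.5, Nr3c1 at 25.1 and Zbtb16 at 22.9 CPM per kb followed, and the ranges over mice of these 3 overlapped. Mt1 at 9.99, Fkbp5 at 9.78 and Mt2 at 8.46 CPM per kb came next by mean, also with overlapping ranges, and Hsd11b1 had the lowest mean at 1.89 CPM per kb. These steps hold for means only, because single mice overlapped across them. Sgk1 ran from 11.1 to 44.1 and Tsc22d3 began at 32.9 CPM per kb. Mt2 ran from 2.39 to 28.6 and Hsd11b1 reached 3.61 CPM per kb. Since these are bulk samples, fewer cells of a type and less RNA per cell cannot be told apart for any gene below.

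Of the 8 genes, 4 changed with age in the wild-type mice and 3 in the V338Y mice by edgeR's quasi-likelihood test (adjusted p under 0.05 over all genes tested). Zbtb16, a zinc finger transcription factor, rose in both genotypes, by 1.96-fold in wild-type and 1.77-fold in V338Y mice. Tsc22d3, the glucocorticoid-induced leucine zipper, fell in both. Mt1 and Hsd11b1 fell in the wild-type mice and Sgk1 fell in the V338Y mice. Of all genes tested, 36.2% changed with age in wild-type mice (18.3% higher, 17.8% lower) and 46.9% in V338Y mice (24.4% higher, 22.5% lower). Young and aged mice did not overlap for 3 genes of the set on the wild-type and for 1 on the V338Y side, beside 43.4% and 42.2% of all genes. For the 8 genes the median log2 fold change with age was -0.39 in wild-type mice, with 0.02 for all genes tested, and -0.24 in the mutants, with 0.07 for all genes. No gene of the 8 was called between the genotypes at 3 mo, 0.075% of all genes being called there, or at 19 mo, 0.0434% being called, and the genotypes overlapped in all 8 genes at both ages, as they did in all but 4.71% and 9.78% of genes tested. DESeq2 called 1 of the 8, Sgk1, at 3 mo, where it called 0.495% of all genes, and none at 19 mo, where it called 0.448%. At an unadjusted edgeR p under 0.05, 3 of the 8 passed at 3 mo (Sgk1, Zbtb16 and Mt1) beside 9.7% of all genes, and none passed at 19 mo beside 8.93%. The age by genotype interaction, which tests whether the age effect differs between the genotypes, was called for none of the 14128 genes tested by edgeR and for 26 genes (0.184%) by DESeq2, none of them among the 8, and none of the 8 passed at an unadjusted edgeR p under 0.05 either, where 9.63% of all genes did. The calls with age rest on few mice. Without the aged wild-type mouse 2 or 4 the count in wild-type mice was 2, and without the young V338Y mouse 4 the count in V338Y mice was 1.

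**Figure D2:**
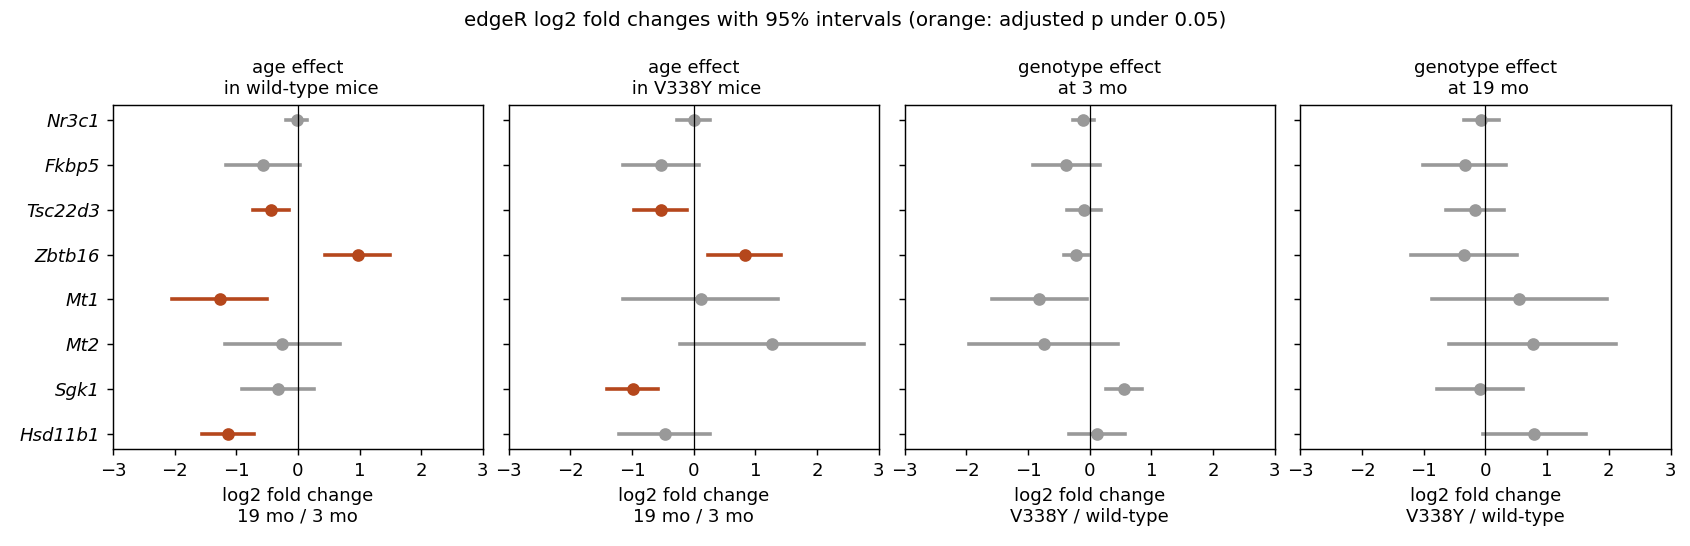
edgeR log2 fold change of the 8 genes (x axis, with 95% interval) for age in each genotype (19 mo over 3 mo) and for genotype at each age (V338Y over wild-type). Orange marks an adjusted p under 0.05, found for 4 genes with age in wild-type mice, for 3 with age in V338Y mice and for none between genotypes.

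The receptor gene Nr3c1 (ENSMUSG00000024431) had about the same level in every group. It was counted at 199, 201, 207 and 199 CPM in the young wild-type mice 1 to 4 and at 178, 210, 165 and 196 CPM in the young V338Y mice. At 19 mo it was at 208, 194 and 193 CPM in the wild-type mice 2, 4 and 5 and at 170, 221, 185 and 167 CPM in the V338Y mice 2 to 5. All groups overlapped. The SD in V338Y mice was 20.0 CPM at 3 mo and 24.6 CPM at 19 mo. In wild-type mice it was 3.49 and 8.70 CPM. These spreads rest on 3 or 4 mice a group, and their difference was not tested. The log2 change with age was -0.02 in wild-type mice (95% interval -0.20 to 0.15, adjusted p = 0.845) and -0.00053 in V338Y mice (-0.27 to 0.27, adjusted p = 0.997). Between genotypes it was -0.10 at 3 mo (-0.28 to 0.07) and -0.07 at 19 mo (-0.36 to 0.22). These intervals leave room for changes of up to about that size in either direction. By the root-mean-square (RMS) difference of standardized log2 levels over the 15 mice, the genes with the pattern most like Nr3c1 among 14126 compared were Zfp119a (0.550) and Aldh7a1 (0.595), where the median over all genes was 1.36.

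Fkbp5 (ENSMUSG00000024222, GRCm38 chr17:28399094-28517527, minus strand) encodes FKBP51, an immunophilin that binds the receptor complex and lowers its affinity for hormone, and which the receptor itself induces. It was at 122, 152, 150 and 70.8 CPM in the young wild-type mice and at 62.2, 129, 92.2 and 97.4 CPM in the young V338Y mice. In the aged mice it was at 63.3, 79.6 and 109 CPM in wild-type and at 35.7, 61.6, 78.7 and 84.6 CPM in V338Y animals. The means ran from 123.8 CPM in the young wild-type group to 65.2 CPM in the aged V338Y group, but neighbouring groups overlapped. The log2 difference with age was -0.56 ± 0.27 (SE) in wild-type mice (adjusted p = 0.128) and -0.54 ± 0.28 in V338Y mice (adjusted p = 0.137), neither past the threshold. Without the young wild-type mouse 4, the lowest of its group, the wild-type difference was -0.75 with an adjusted p of 0.0225, within a range of 0.0225 to 0.304 over all alternatives. Between genotypes the log2 difference was -0.38 ± 0.25 at 3 mo and -0.34 ± 0.30 at 19 mo. Fkbp5 was most alike to Wapl (RMS difference 0.304) and Ppp6r3 (0.322).

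Tsc22d3 (ENSMUSG00000031431, chrX:140539528-140600659, minus strand) encodes GILZ, a leucine zipper protein that restrains inflammatory transcription factors and is among the most general targets of the receptor. It was at 304, 259.8, 307 and 374 CPM in the young wild-type mice and at 228, 207 and 251 CPM in the aged ones, so that all 3 aged mice lay below all 4 young mice. In V338Y mice it was at 288, 352, 242 and 280.2 CPM at 3 mo and at 143, 216, 263 and 173 CPM at 19 mo, where only the aged mouse 4 reached into the young range. It fell by 0.44 ± 0.13 on the log2 scale in wild-type mice (adjusted p = 0.0267) and by 0.54 ± 0.19 in V338Y mice (adjusted p = 0.0416). Both calls were close to the threshold. In wild-type mice the adjusted p was 0.0569 without the young mouse 3, 0.0541 without the young mouse 4, 0.0546 without the aged mouse 2, 0.0974 without the aged mouse 4 and 0.0760 in a single fit of all 15 mice. In V338Y mice it was 0.0700 without the young mouse 1, 0.119 without the young mouse 2, 0.0733 without the young mouse 4, 0.0909 without the aged mouse 2 and 0.0797 without the aged mouse 5. Tsc22d3 lies on the X chromosome, and the young and aged mice differed in their sex-chromosome transcripts as given above. Between genotypes the log2 difference was -0.09 ± 0.13 at 3 mo and -0.18 ± 0.21 at 19 mo. The genes most alike to it were Otud3 (RMS difference 0.419) and Tnpo2 (0.424).

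Zbtb16 (ENSMUSG00000066687, chr9:48654297-48836222, minus strand), which encodes the transcription factor PLZF, was even among the young mice and uneven among the aged ones. In the young mice it was at 100.5, 95.8, 98.0 and 81.7 CPM in wild-type and at 85.0, 89.3, 75.7 and 72.0 CPM in V338Y animals. At 19 mo it was at 106, 199 and 246 CPM in the wild-type mice 2, 4 and 5. The aged V338Y mice 2 to 5 had 70.6, 123, 191 and 181 CPM. All aged wild-type mice were thus above all young ones, and 3 of the 4 aged V338Y mice were above all young ones while mouse 2 was below them. Zbtb16 rose with age by 0.97 ± 0.23 on the log2 scale in wild-type mice (adjusted p = 0.0117) and by 0.82 ± 0.26 in V338Y mice (adjusted p = 0.0274). The wild-type call held with any single mouse left out. The V338Y call was lost, with adjusted p of 0.0526, 0.0691 and 0.0700, without the young mouse 1, 3 or 4, and with 0.0738 without the aged mouse 4. Between genotypes the log2 difference was -0.22 ± 0.09 at 3 mo (unadjusted p = 0.0344 by edgeR, adjusted p = 0.488) and -0.35 ± 0.37 at 19 mo (adjusted p = 0.797), and at 3 mo the 2 groups overlapped.

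The genes with the pattern most like Zbtb16 over the 15 mice were Tacc2 (RMS difference 0.280), which encodes a microtubule-associated coiled-coil protein, and Irs2 (0.281), which encodes an adaptor of the insulin receptor. Irs2 was at 14.8, 27.7 and 46.9 CPM in the aged wild-type mice 2, 4 and 5 and at 9.31, 14.1, 30.8 and 28.5 CPM in the aged V338Y mice 2 to 5, and it lay between 8.98 and 15.2 CPM in the young mice. Tacc2 was at 816, 1262 and 1827 CPM in the same aged wild-type mice and at 556, 917, 1277 and 1716 CPM in the aged V338Y mice. In all 3 genes the aged wild-type mouse 2 and the aged V338Y mice 2 and 3 were the lowest of the aged mice. Irs2 and Tacc2 were picked by likeness to Zbtb16, so their sharing of this order follows from the choice. The same mice were also the lowest aged mice for Fkbp5, Mt1 and Mt2, but not for Nr3c1, Tsc22d3, Sgk1 or Hsd11b1. Of the other receptor targets, Per1, Klf9 and Foxo1 were among those with this order, and Mstn and Txnip among those without it. Pdk4, the pyruvate dehydrogenase kinase that spares glucose in fasting and a receptor target in muscle, was chosen for display after its values were seen. It was at 63.0 CPM in the aged wild-type mouse 2 and at 93.2 and 54.5 CPM in the aged V338Y mice 2 and 3, and between 1087 and 2601 CPM in the other 4 aged mice. The young mice had 414 to 1517 CPM of Pdk4, so that the 3 low aged mice lay below them all. Between-group tests of Pdk4 carried this spread, with a log2 difference with age of 0.64 ± 0.76 in wild-type and 0.19 ± 1.0 in V338Y mice, neither past the threshold.

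**Figure D3:**
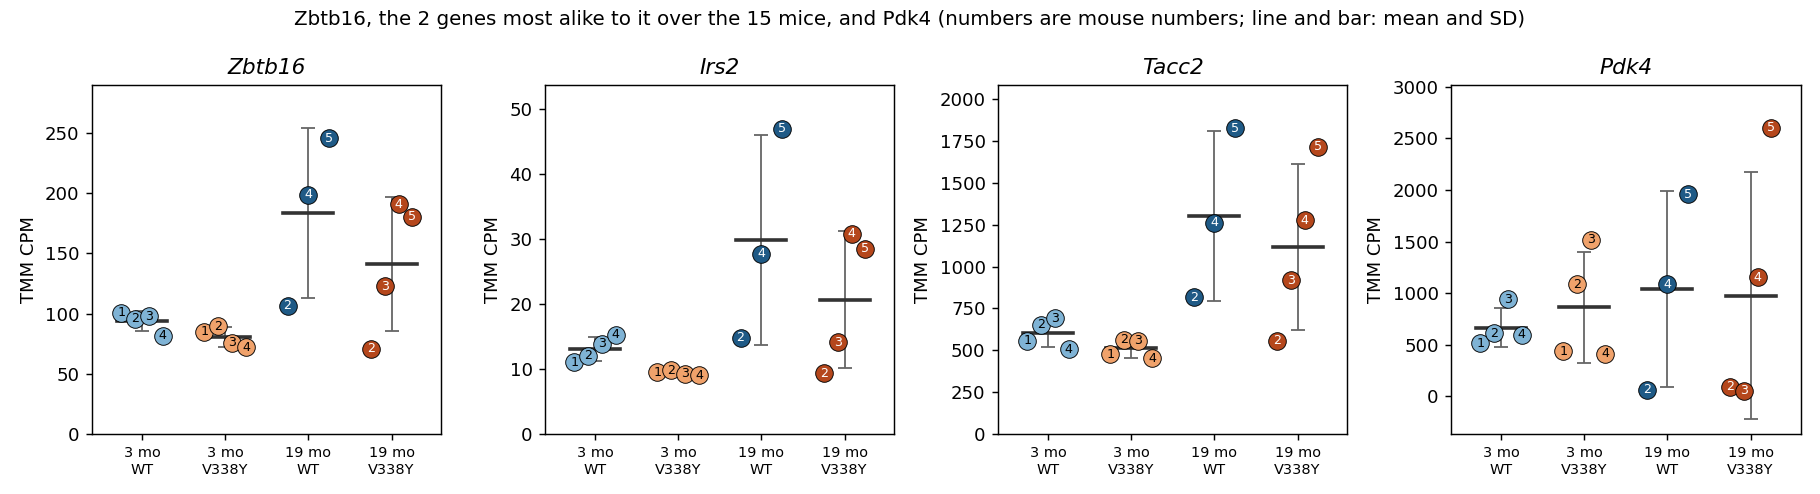
Levels (TMM CPM, linear axis) of Zbtb16, of Irs2 and Tacc2, the genes most alike to it over the 15 mice, and of Pdk4, by mouse, age and genotype. Numbers are mouse numbers, lines are means and bars SD. The aged wild-type mouse 2 and the aged V338Y mice 2 and 3 are the lowest aged mice in all 4 panels, with Pdk4 at 54.5 to 93.2 CPM. Irs2 and Tacc2 were picked by their likeness in these mice and Pdk4 after its values were seen. The shared order of the panels therefore follows from the choice of genes.

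Mt1 (ENSMUSG00000031765, chr8:94179082-94180327, plus strand) and Mt2 (ENSMUSG00000031762, chr8:94172664-94173568, plus strand) lie side by side and encode metallothioneins, small cysteine-rich proteins that bind zinc and copper. Both are induced by glucocorticoids and, through the metal-responsive factor MTF1, by zinc. Their promoters, from 250 bases before to 50 bases after the RefSeq start (GRCm38.p6), are shown because the genes are the pair in the set known to share a regulator. Capitals mark the core of the metal response element, TGCNCNC on either strand, where N is any base.

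Mt1 promoter (chr8:94178839-94179138, plus strand): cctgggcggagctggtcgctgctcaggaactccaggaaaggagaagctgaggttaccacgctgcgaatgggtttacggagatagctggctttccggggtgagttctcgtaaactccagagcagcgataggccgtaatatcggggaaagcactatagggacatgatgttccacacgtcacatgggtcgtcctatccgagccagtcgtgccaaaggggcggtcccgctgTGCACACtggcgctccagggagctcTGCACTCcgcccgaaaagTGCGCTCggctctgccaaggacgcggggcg
Mt2 promoter (chr8:94172368-94172667, plus strand): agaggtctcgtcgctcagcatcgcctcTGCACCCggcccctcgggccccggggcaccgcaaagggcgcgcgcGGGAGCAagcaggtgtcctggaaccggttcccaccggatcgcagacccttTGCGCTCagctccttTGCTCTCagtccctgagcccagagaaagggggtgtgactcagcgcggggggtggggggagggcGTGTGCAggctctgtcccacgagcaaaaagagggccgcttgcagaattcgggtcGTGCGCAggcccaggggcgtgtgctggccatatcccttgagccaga

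The Mt1 window holds 3 matches and the Mt2 window 6. Of all 32544 RefSeq promoters of this length, 51.3% hold at least 1 match, 7.13% at least 3 and 0.704% at least 5. The hexamer of the glucocorticoid receptor, TGTTCT or AGAACA, is in neither window, and 18.9% of all promoters hold it. Such matches describe the letters and are not evidence of binding.

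Mt1 was at 10.5, 26.2, 16.5 and 22.9 CPM in the young wild-type mice and at 5.16, 7.10 and 11.7 CPM in the aged ones, where the aged mouse 5 reached above the young mouse 1. In V338Y mice it was at 18.4, 10.5, 7.69 and 5.30 CPM at 3 mo and at 5.40, 4.15, 9.03 and 26.4 CPM at 19 mo. Mt1 fell with age in wild-type mice, by 1.27 ± 0.34 on the log2 scale (adjusted p = 0.0189), and the adjusted p was 0.0537 without the aged mouse 2, 0.0685 without the aged mouse 4 and 0.0951 in a single fit of all 15 mice. In V338Y mice the log2 difference was 0.11 ± 0.56 (adjusted p = 0.884), and -0.78 (adjusted p = 0.133) without the aged mouse 5. The difference between these age effects was 1.36 ± 0.77 (adjusted p = 0.587 for the interaction) and 0.49 at its lowest with a mouse left out. Between genotypes Mt1 differed by -0.81 ± 0.35 at 3 mo (unadjusted p = 0.0401 by edgeR, adjusted p = 0.495) and by 0.55 ± 0.62 at 19 mo (adjusted p = 0.810), the latter turning to -0.33 without the aged V338Y mouse 5.

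Mt2 was lower and rested on fewer reads, 13 to 262 counts per mouse. It was at 2.37, 8.86, 3.65 and 5.98 CPM in the young wild-type mice, at 2.79, 5.32 and 5.12 CPM in the aged wild-type mice, at 7.18, 1.52, 1.41 and 1.50 CPM in the young V338Y mice and at 4.60, 2.81, 4.71 and 16.8 CPM in the aged V338Y mice. Within each V338Y group a single mouse stood above the rest, mouse 1 at 3 mo and mouse 5 at 19 mo, and these were also the highest of their groups for Mt1. No test of Mt2 passed the threshold. Its log2 difference with age was -0.25 ± 0.41 in wild-type mice (adjusted p = 0.656) and 1.27 ± 0.67 in V338Y mice (adjusted p = 0.146). Without the young V338Y mouse 1 the latter was 2.31 with an adjusted p of 0.0204, within a range of 0.00422 to 0.579 over the alternatives. Between genotypes it differed by -0.75 ± 0.55 at 3 mo and 0.77 ± 0.59 at 19 mo, and by -0.10 at 19 mo without the aged V338Y mouse 5.

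Among the 8 genes Mt2 was the one most alike to Mt1, with an RMS difference of 0.777. Over all genes Mt1 was closest to Srxn1 (0.472), which encodes sulfiredoxin, and Txnrd1 (0.505), which encodes thioredoxin reductase, both known parts of the oxidative stress response. Srxn1 was highest in the aged V338Y mouse 5 at 76.2 CPM and in the young wild-type mouse 4 at 66.7 CPM, and lowest in the aged V338Y mouse 3 at 16.5 CPM, which was also the lowest for Mt1. The genes closest to Mt2 were Vav1 (0.429), which encodes a signalling protein of blood cells, and Rabep2 (0.442). Beside the high metallothionein levels of the aged V338Y mouse 5 stood the 6 neutrophil markers at 559 CPM and the 5 erythroid markers at 783 CPM, both the highest of the 15 mice, and the zinc importer Slc39a14 at 49.4 CPM against 11.7 to 21.6 CPM in all others. The neutrophil sum was 0 to 1.79 CPM in the young mice, 2.37 to 4.63 CPM in the aged wild-type mice and 2.80 to 559 CPM in the aged V338Y mice, and no marker of the list was at 0 in all mice. Beside the high Mt2 of the young V338Y mouse 1 the neutrophil sum was only 1.32 CPM. The next highest neutrophil sum, 24.9 CPM in the aged V338Y mouse 3, stood beside the lowest Mt1 of all mice, 4.15 CPM. The next highest erythroid sum, 432 CPM in the aged V338Y mouse 2, stood beside Mt1 at 5.40 CPM. The part of these other cells in the metallothionein levels was not tested.

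**Figure D4:**
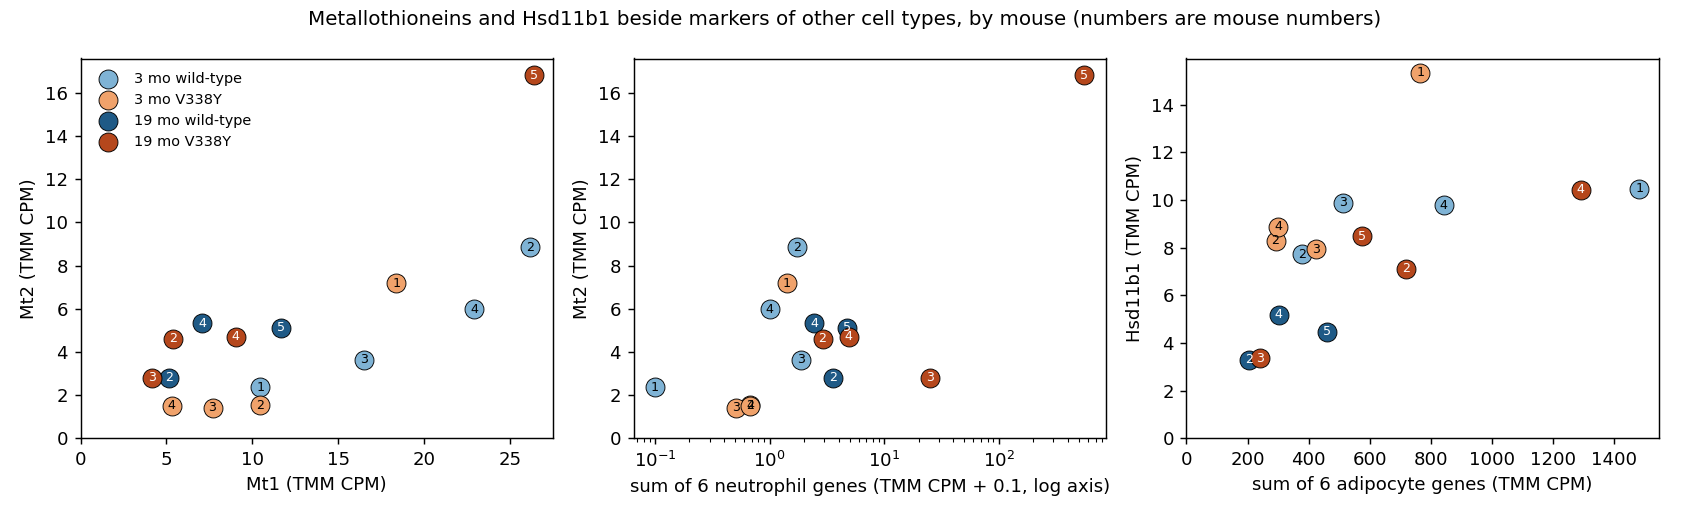
Left, Mt2 against Mt1; middle, Mt2 against the sum of 6 neutrophil markers (log axis, 0.1 CPM added); right, Hsd11b1 against the sum of 6 adipocyte markers, all in TMM CPM with a point per mouse labelled by mouse number and coloured by group. The aged V338Y mouse 5 is alone at 559 CPM of neutrophil markers, and the aged wild-type mice have the lowest Hsd11b1 together with the aged V338Y mouse 3.

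Sgk1 (ENSMUSG00000019970, chr10:21882184-21999903, plus strand) encodes a kinase that acts on ion channels, transporters and FOXO factors and is induced by glucocorticoids and mineralocorticoids. RefSeq gives it 6 start sites with different promoter sequences. The window of the fifth is printed because it holds the most receptor hexamers, with TGTTCT and AGAACA in capitals.

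Sgk1 promoter (chr10:21993640-21993939, plus strand): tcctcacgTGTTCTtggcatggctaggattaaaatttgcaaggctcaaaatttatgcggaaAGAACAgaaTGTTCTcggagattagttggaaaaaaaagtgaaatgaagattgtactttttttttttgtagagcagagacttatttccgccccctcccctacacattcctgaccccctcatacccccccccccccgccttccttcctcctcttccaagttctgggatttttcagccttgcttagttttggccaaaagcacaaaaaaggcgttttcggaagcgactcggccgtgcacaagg

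This window has 3 hexamers, and 0.310% of all promoters hold 3 or more. At position -189 from the start AGAACA and TGTTCT stand 3 bases apart as a palindrome, the arrangement known for binding of a receptor dimer, and 3 of the 32544 promoters hold this palindrome (0.00922%). It was searched for after the window had been seen. It was in none of the other windows of Sgk1 or of the other members. The search covered 6 of the 8 genes.

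Sgk1 was at 137, 108, 119.8 and 147 CPM in the young wild-type mice and at 216, 146, 180.1 and 209.9 CPM in the young V338Y mice, the mutant mouse 2 being the only one that reached into the wild-type range. At 19 mo it was at 133, 54.4 and 118 CPM in wild-type mice and at 89.2, 129, 86.6 and 71.5 CPM in V338Y mice. All 4 aged V338Y mice were below all 4 young ones. Sgk1 fell with age in V338Y mice by 0.99 ± 0.19 on the log2 scale (adjusted p = 0.00234), and this held with each mouse left out (-1.19 to -0.87). In wild-type mice the log2 difference was -0.33 ± 0.26 (adjusted p = 0.343). That the age effects differ was not shown, the interaction being -0.67 ± 0.35 (unadjusted p = 0.0722 by edgeR, adjusted p = 0.562). At 3 mo the log2 difference of V338Y from wild-type mice was 0.56 ± 0.13 (unadjusted p = 0.0014 by edgeR, adjusted p = 0.244). DESeq2 gave an adjusted p of 0.00944 for it, and the adjusted p ranged from 0.00944 to 0.819 over the alternatives. At 19 mo the difference was -0.09 ± 0.30 (adjusted p = 0.958). The genes most alike to Sgk1 were Snf8 (RMS difference 0.357) and Ube2l3 (0.397).

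Hsd11b1 (ENSMUSG00000016194, chr1:193221634-193264075, minus strand) encodes 11β-hydroxysteroid dehydrogenase type 1, which regenerates active glucocorticoid from its inert 11-keto form inside the cell. It was at 10.5, 7.73, 9.88 and 9.78 CPM in the young wild-type mice and at 3.29, 5.18 and 4.46 CPM in the aged ones, with no overlap. In V338Y mice it was at 15.3, 8.28, 7.93 and 8.87 CPM at 3 mo and at 7.11, 3.35, 10.4 and 8.48 CPM at 19 mo, where the groups overlapped. Hsd11b1 fell with age in wild-type mice by 1.14 ± 0.19 on the log2 scale (adjusted p = 0.00219), and this held with each mouse left out (-1.30 to -0.97). In V338Y mice the difference was -0.47 ± 0.33 (adjusted p = 0.263), and the interaction of 0.65 ± 0.43 did not pass the threshold (adjusted p = 0.634). Between genotypes it was 0.12 ± 0.21 at 3 mo and -0.17 there without the young V338Y mouse 1.

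At 19 mo Hsd11b1 differed between V338Y and wild-type mice by 0.79 ± 0.37 (unadjusted p = 0.0605 by edgeR, adjusted p = 0.564). In a fit blocked on mouse number (a replicate block), which uses the pairs 2, 4 and 5 and drops the unpaired V338Y mouse 3 from the estimate, the difference was 1.05 with an adjusted p of 0.0494, and 0.795% of all genes were called in that fit. Hsd11b1 was higher in the mutant in 3 of 3 pairs, as was Mt1, while Nr3c1, Fkbp5 and Zbtb16 were lower in 3 of 3 and no other gene of the 8 was called in that fit. The share of all genes with the same sign in all 3 pairs was not computed, and no result is read from these signs. The labels give shared numbers and do not name pairs. The unpaired V338Y mouse 3 had the highest Nr3c1 of all mice, at 221 CPM. The adjusted p of the Hsd11b1 difference over all alternatives ran from 0.0494 to 0.883. The omitted mouse 3 was the lowest of the aged mutants at 3.35 CPM. Hsd11b1 is known to be abundant in fat, and the 6 adipocyte markers summed to 205, 303 and 460.2 CPM in the aged wild-type mice 2, 4 and 5 and to 719, 241, 1290 and 574 CPM in the aged V338Y mice 2 to 5. The aged mice with the lowest and the highest Hsd11b1, the wild-type mouse 2 and the V338Y mouse 4, were also those with the lowest and the highest adipocyte sum. In the young mice the sum was 378 to 1481 CPM in wild-type and 292 to 765 CPM in V338Y animals, and the young V338Y mouse 1, the highest for Hsd11b1, had the highest sum of its group. In wild-type mice the means of all 6 adipocyte markers were lower at 19 mo than at 3 mo, and 2 of them, Adipoq and Fabp4, were called lower with age. In V338Y mice the means of all 6 were higher at 19 mo than at 3 mo. Mean Adipoq there went from 38.2 to 72.3 CPM and Fabp4 from 200 to 284 CPM, while mean Hsd11b1 went from 10.1 to 7.34 CPM. The part of fat in the Hsd11b1 level was not tested. The genes most alike to Hsd11b1 were Pbx2 (RMS difference 0.402) and Klhl2 (0.442).

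Of 18 genes known as partners of the receptor, 8 rose and 7 fell with age in wild-type mice, and 6 rose and 6 fell in V338Y mice, beside 36.2% and 46.9% of all genes called in either direction. Without the aged V338Y mouse 5 the counts in V338Y mice were 7 and 5, beside 47.1% of all genes, with Nr3c2 added (adjusted p = 0.0221) and Ptges3 lost (adjusted p = 0.0630). The 7 that fell in wild-type mice were the chaperones and cochaperones of the list. Among them Hspa8, which encodes the constitutive HSP70, fell by 0.96 ± 0.16 on the log2 scale in wild-type and by 0.44 ± 0.13 in V338Y mice, and Stip1, which passes clients from HSP70 to HSP90, fell by 0.93 ± 0.12 and 0.59 ± 0.11. Fkbp4, which encodes FKBP52, the immunophilin that raises hormone affinity, was at 101 to 119 CPM in the young wild-type mice and at 61.1 to 64.4 CPM in the aged ones, and fell in both genotypes. Hsp90ab1, Ptges3 and Bag1 fell in both genotypes as well, and Hsp90aa1 fell in wild-type mice (-0.77 ± 0.26) while its difference in V338Y mice was -0.08 ± 0.23.

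The partners that rose in both genotypes were regulators of transcription. The acetyltransferase genes Crebbp (1.39 ± 0.13 on the log2 scale in wild-type and 1.37 ± 0.13 in V338Y mice) and Ep300 (1.28 ± 0.14 and 1.40 ± 0.12) rose in both, as did the coactivator genes Ncoa2 and Ncoa3 and the remodeller gene Smarca4. Nr3c2, which encodes the mineralocorticoid receptor that also binds glucocorticoids, rose in wild-type mice by 0.59 ± 0.17 (adjusted p = 0.0258), and its difference in V338Y mice was 0.32 ± 0.12 (adjusted p = 0.0586). Med1 likewise was called in wild-type mice only, and for neither was a difference between the age effects shown (adjusted p = 0.705 and 0.749 for the interaction). Ncoa1, Ncor1 and Nrip1 did not pass the test in either genotype. The median log2 fold change of the list was 0.15 for wild-type and 0.16 for mutant animals. None of the 18 was called between the genotypes.

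**Figure D5:**
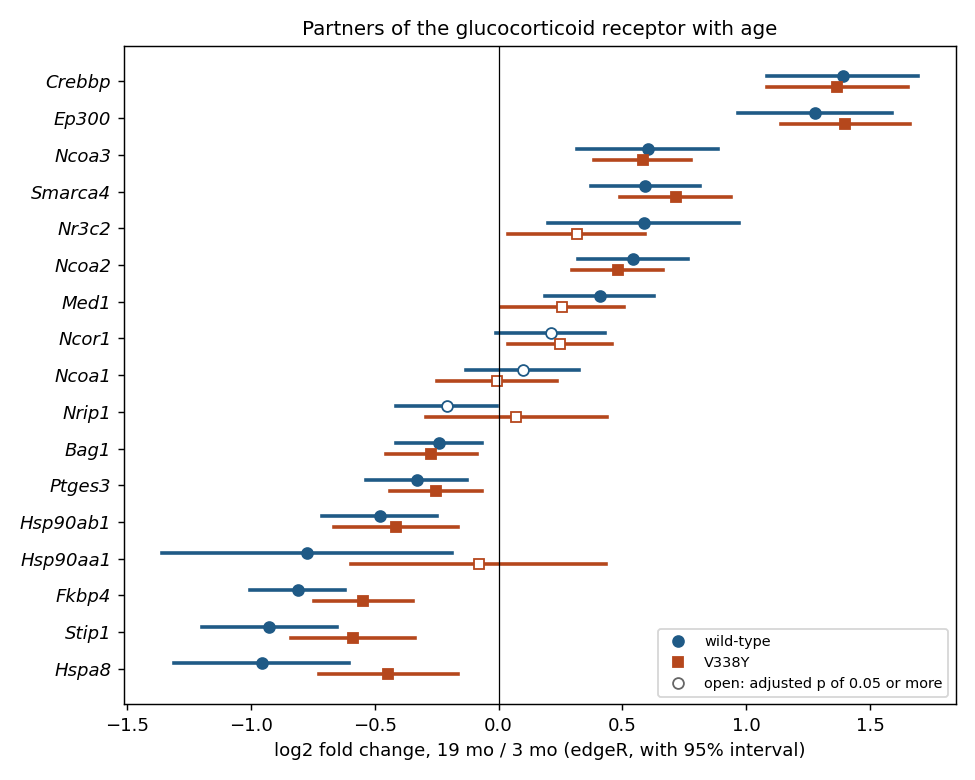
edgeR log2 fold change with age (19 mo over 3 mo, x axis, with 95% interval) of the receptor partners named in the text, sorted by the wild-type value, circles for wild-type and squares for V338Y mice, open where the adjusted p is 0.05 or more. Chaperone genes are at the lower end, down to -0.96 for Hspa8, and Crebbp is at the upper end with 1.39 and 1.37.

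Of 6 genes of steroid handling, 3 were expressed enough to be tested. Abcb1b, which encodes an efflux pump that exports glucocorticoids, rose with age in both genotypes (0.65 ± 0.14 in wild-type and 0.47 ± 0.15 in V338Y mice), and Abcb1a rose in V338Y mice (0.40 ± 0.14, against 0.24 ± 0.10 in wild-type mice, adjusted p = 0.0853), a call lost without the aged V338Y mouse 5 (adjusted p = 0.0733). H6pd, which supplies the cofactor of the Hsd11b1 enzyme, differed with age by 0.05 ± 0.09 and -0.04 ± 0.15. Hsd11b2, whose enzyme inactivates glucocorticoids, was at most 0.193 CPM in any mouse.

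Of 30 other genes known as receptor targets in muscle, 6 rose and 1 fell with age in wild-type mice, and 8 rose and 1 fell in V338Y mice, beside the 36.2% and 46.9% of all genes called in either direction. Cdkn1a, which encodes the cell cycle inhibitor p21, rose by 1.48 ± 0.33 on the log2 scale in wild-type and 2.15 ± 0.38 in V338Y mice. The FOXO factor genes Foxo1 (1.37 ± 0.36 and 1.50 ± 0.32) and Foxo3 (0.94 ± 0.15 and 0.77 ± 0.20) rose in both, as did Zfp36, whose product destabilizes inflammatory mRNAs, and Per1, whose V338Y call was lost without the aged V338Y mouse 5 (adjusted p = 0.0939). Without that mouse 7 of the 30 rose and 2 fell in V338Y mice. The atrophy ligase genes Fbxo32 and Trim63 did not pass the test, with 0.76 ± 0.30 and 0.61 ± 0.38 in wild-type and -0.47 ± 0.49 and -0.54 ± 0.42 in V338Y mice. Mstn, which encodes the growth inhibitor myostatin, fell in V338Y mice by 1.56 ± 0.30, from 141 to 176 CPM in the young mice to 22.5 to 76.8 CPM in the aged ones, and its difference in wild-type mice was -0.79 ± 0.31 (adjusted p = 0.0744). Lpin1 fell in wild-type mice by 0.58 ± 0.17. Rasd1 was at most 0.762 CPM in the young V338Y mice and 0.804 to 5.62 CPM in the aged ones, a log2 difference of 2.80 ± 0.73. It had 2 to 8 counts in the young V338Y mice and passed the filter of 10 counts only through the aged ones, with 12 to 56. In wild-type mice its mean was 2.47 CPM at 3 mo and 1.16 CPM at 19 mo. Lcn2 was at 0.230 to 1.55 CPM in the young V338Y mice, at 1.30 to 2.91 CPM in 3 of the aged ones and at 31.4 CPM in the aged mouse 5, whose neutrophil markers summed to 559 CPM. Lcn2 differed with age in V338Y mice by 3.40 ± 1.05 (adjusted p = 0.0242), and by 1.27 ± 0.46 (adjusted p = 0.0454) without that mouse.

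Slc30a2, a zinc exporter gene, had the largest change of the metallothionein and zinc list. It was at 5.44 to 13.6 CPM in the young wild-type mice and at 0.370 to 1.24 CPM in the aged ones, and at 9.75 to 12.4 CPM in the young V338Y mice and 0 to 2.28 CPM in the aged ones. It fell by 3.98 ± 0.46 and 3.20 ± 0.52 on the log2 scale. In the aged wild-type mice it had only 5 to 15 counts, and in that genotype it passed the filter only through the young group. Slc30a1, the exporter gene induced by zinc, fell by 0.37 ± 0.11 and 0.55 ± 0.17, Mtf1 rose in wild-type mice by 0.39 ± 0.10 and Slc39a10 rose in V338Y mice by 0.52 ± 0.12. In this list of 7 genes 5 were tested, and 1 rose and 2 fell in each genotype, beside 36.2% of all genes called in wild-type and 46.9% in V338Y mice. Mt3 was at most 0.544 CPM in all mice but the young V338Y mouse 1, where it was at 2.70 CPM.

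Among the paralogs of the members, 2 of 5 tested rose and 1 fell in wild-type mice, and 1 rose and 1 fell in V338Y mice, beside 36.2% and 46.9% of all genes. Tsc22d4 rose in both genotypes (0.73 ± 0.13 and 0.84 ± 0.16), while Tsc22d3 fell in both. Nr3c2, the other paralog that rose in wild-type mice, and Fkbp4, the paralog of Fkbp5 that fell, are given above. Tsc22d1, a further gene of this family that stood in the list of receptor targets, rose in wild-type mice (0.46 ± 0.13). Of 5 tested substrates and channels of the Sgk1 kinase, Ndrg1 rose in both genotypes (0.82 ± 0.11 and 0.81 ± 0.13), Ndrg2 fell in V338Y mice (-0.53 ± 0.12) and had -0.29 ± 0.10 in wild-type mice (adjusted p = 0.0549), and Gsk3b rose in wild-type mice (0.56 ± 0.12).

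Of 14 clock genes, of which Per1 is also a receptor target, 5 rose and 6 fell with age in wild-type mice, and 6 rose and 7 fell in V338Y mice, beside the 36.2% and 46.9% of all genes. In V338Y mice 4 rose and 7 fell without the aged mouse 5. Arntl, which encodes the activator BMAL1, rose from 16.0 to 18.4 CPM in the young to 53.9 to 57.4 CPM in the aged wild-type mice, and Npas2 rose by 4.40 ± 0.37 on the log2 scale in wild-type and 4.60 ± 0.34 in V338Y mice. Dbp, an output gene of the clock, fell from 61.4 to 77.6 CPM in the young to 5.62 to 10.00 CPM in the aged wild-type mice. The time of day at sampling is not given in the sources used here, and the part of the clock state in the age differences of the receptor targets was not tested. No gene of any of these lists was called between the genotypes at either age or for the interaction.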

How the data were processed

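Quadriceps RNA of 15 mice was sequenced as single-end reads from a stranded library. The authors quantified the reads with RSEM 1.2.18 on Ensembl 75 annotation, and the deposited values are expected counts per gene given as whole numbers. The methods name the mouse build GRCm37, the submitters' processing notes GRCm38 and STAR 2.4.2a. The values were used as deposited. Symbols and positions (37607 and 37693 of 39179 identifiers) came from GENCODE M21 (GRCm38), and promoters from RefSeq (GRCm38.p6), which gave them for 6 of the 8 genes. No 2 of the 15 tables were identical.

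Genes with at least 10 counts in 50% of the mice of a compared group were tested with edgeR 4.0.16 (TMM, quasi-likelihood F-test, R 4.3.3), each comparison fitted on its own mice and the interaction on all 15, with Benjamini-Hochberg adjustment over all genes tested and calls at an adjusted p under 0.05. All 8 genes passed the filter in every comparison. SE is the log2 fold change over the square root of F. DESeq2 1.42.0, RLE scaling, no filter, a replicate block on mouse number, library sizes that leave out the 10 genes with the most counts, a single fit and each mouse left out were alternatives. Likeness used log2(CPM + 0.5). The scripts were tested on simulated counts. P-values judge a difference between groups against the spread between mice.

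Mouse numbers, shared between groups in the labels, were checked by correlating deviations from group means over genes. At 19 mo all 3 same-numbered pairs of wild-type and V338Y mice correlated above 0.1 (0.132 to 0.400), while differently numbered pairs ran from -0.407 to 0.467. At 3 mo (-0.162 to 0.141) and with age (-0.136 to 0.0158) they did not.

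The 8 genes and the gene lists were chosen with earlier results of these data known. Named from the lists were up to 5 genes per list and comparison by smallest adjusted p and any gene of the receptor partner and steroid lists, and others are named as seen afterwards: Fbxo32, Trim63, Pdk4, Lcn2, Rasd1, Mtf1, Mt3 and marker genes. The single-gene values of 2 members of the background lists are not reported here, though both count in their lists.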

Additional observations from a re-analysis of the deposited data

Results flagged for a closer look

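In 24 groups of 4 mice (8 genes in 3 groups), 3 had a mouse far from the others by Dixon's criterion at the 95% level, which chance alone gives in about 1 of 20 groups. Mt2 was at 7.177 CPM in the young V338Y mouse 1 and at 1.41 to 1.52 CPM in the other 3 mice of that group. Mt2 was at 16.827 CPM in the aged V338Y mouse 5 and at 2.81 to 4.71 CPM in the others. Hsd11b1 was at 15.3301 CPM in the young V338Y mouse 1 and at 7.93 to 8.87 CPM in the others. The marker sums of these mice are given with the results, and their part in these levels was not tested. The aged wild-type group, with 3 mice, could not be examined in this way.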

How the results depend on the processing

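Of 608 recomputed values of the 8 genes in the 5 comparisons, 542 kept their direction and their side of the threshold, 21 lost the call, 7 gained it and 38 changed sign, the last all among values not called. The number of genes called with age in wild-type mice was 2 instead of 4 with the replicate block and in a single fit of all mice, and 2 to 4 with a mouse left out. In V338Y mice it was 1 instead of 3 at an unadjusted p under 0.005 and 1 to 3 with a mouse left out. Between genotypes it was 1 instead of 0 at 3 mo by DESeq2 and with the block, and 1 at 19 mo with the block. The block changed the sign of Nr3c1 (log2 0.012 with age in wild-type and 0.021 in V338Y mice, -0.077 for the interaction), of Mt1 with age in V338Y mice (-0.37) and of Fkbp5 for the interaction (-0.026). With age and at 3 mo the samples share only a number, and with age the block also took the calls of Tsc22d3 in both genotypes and of Zbtb16 in both, and added Fkbp5 and Mt2 in V338Y mice; the cause was not tested. Without both aged mice numbered 5, chosen after seeing the data, Sgk1 differed by 0.15 between genotypes at 19 mo, and the interaction was 0.059 for Tsc22d3 and 0.00027 for Zbtb16.

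With a mouse left out, signs changed within these log2 ranges: with age -0.49 to 0.14 for Mt2 in wild-type mice, and -0.10 to 0.060 for Nr3c1 and -0.78 to 0.54 for Mt1 in V338Y mice; between genotypes -0.20 to 0.0060 for Tsc22d3 and -0.17 to 0.23 for Hsd11b1 at 3 mo, and -0.33 to 0.92 for Mt1, -0.10 to 1.06 for Mt2 and -0.39 to 0.16 for Sgk1 at 19 mo; for the interaction -0.079 to 0.090 for Nr3c1, -0.15 to 0.25 for Fkbp5, -0.25 to 0.044 for Tsc22d3 and -0.43 to 0.12 for Zbtb16. With 3 to 4 mice a group and 13 to 262 counts of Mt2 per mouse, differences of the size seen for Mt2 and Fkbp5 could not be told from the spread between mice.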
